A study of Mus musculus with 12 samples.

Results

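The interaction of genotype and DMαKG compares 2 responses in regulatory T cells (Tregs): the response to DMαKG in cells without transketolase, and the response in wild-type cells. All 12 libraries of the series enter it, in 4 groups of 3. Each gene has 1 value, computed on the log2 scale as (cKO with DMαKG minus cKO with vehicle) minus (WT with DMαKG minus WT with vehicle). A positive value means that the cKO response lay above the WT response, and 0 means equal responses. The test covered 12903 of the 17955 genes listed, those with sufficient counts.

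The cells were CD4+CD25+YFP+ Tregs from spleen and lymph node of 7-week-old C57BL/6 mice. WT mice were Foxp3YFP-cre TKT+/+ and cKO mice Foxp3YFP-cre TKTfl/fl, so both genotypes carried a Cre recombinase and yellow fluorescent protein driven from Foxp3, the gene of the Treg-defining transcription factor. DMαKG or vehicle was supplied in the drinking water, starting during the mothers' pregnancy and lasting into the adulthood of the offspring. Exposure therefore covered development of the whole animal, while the deletion was restricted to cells that express Foxp3. The labels speak of a mouse for each library but do not say whether cells of several were pooled. They also do not say whether mice of a group were littermates. The p-values therefore measure the spread between libraries within groups, shared over the 4 groups of 3.

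Transketolase, encoded by Tkt, is an enzyme of the non-oxidative branch of the pentose phosphate pathway, which exchanges sugar phosphates between glycolysis and nucleotide synthesis. DMαKG is a cell-permeable ester of α-ketoglutarate, an intermediate of the tricarboxylic acid (TCA) cycle. α-Ketoglutarate is also the co-substrate of a large family of dioxygenases, among them the TET enzymes that start DNA demethylation and the JmjC histone demethylases, and Tregs depend on demethylated regions at Foxp3 to keep their identity.

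Tkt was low in each cKO library with either treatment, at 26.2 to 41.8 CPM (estimated counts scaled to library size) with vehicle and 31.5 to 37.8 CPM with DMαKG, against 102 to 133 and 110 to 194 CPM in WT. Its interaction was -0.37 (SE 0.30, edgeR unadjusted p = 0.236, adjusted p = 0.949). This value came from WT, where the DMαKG minus vehicle difference was 0.35 against -0.02 in cKO. It was -0.12 without WT DMαKG replicate 3, at 194 CPM the highest library, -0.20 with the Y-linked level as a term in the fit and -0.0049 with voom quality weights. It was also -0.23 without cKO vehicle replicate 4 and -0.54 without cKO vehicle replicate 2. It took the other sign, at 0.063, without the 3 libraries that stood together at 1 end of the first principal component. The libraries held between 1.57e+07 and 1.89e+07 estimated counts each. The Treg markers Foxp3 (280 to 545 CPM), Il2ra (467 to 776 CPM) and Ikzf2 (960 to 1540 CPM) were abundant in all 12 libraries. The Y-linked genes Ddx3y and Kdm5d were at or near 0 in WT vehicle replicate 3 and in cKO DMαKG replicates 1 and 3, at intermediate levels in WT DMαKG replicate 2 (22.6 and 6.29 CPM), and high in the other libraries, including all 3 of the cKO vehicle group. On the first principal component, which held 29.0% of the variance, cKO DMαKG replicate 3 stood at one end (47.0), and at the other stood the vehicle replicates 4 of WT (-32.9) and of cKO (-32.8) and DMαKG replicate 3 of WT (-29.7). The labels do not give the sex of the mice.

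The first question was whether any gene responded to DMαKG differently in the 2 genotypes. With edgeR's quasi-likelihood test and Benjamini-Hochberg adjustment, 0 of 12903 genes (0%) passed at 0.05, and the smallest adjusted p was 0.949. The unadjusted p was under 0.05 for 477 genes, 3.7% of those tested, below the 5% share of equally spread p-values. Of these, 310 had positive and 167 negative interactions. DESeq2's Wald test and limma voom with sample quality weights each called 1 gene, Ncoa7. The 4 genes with an unadjusted p under 0.001 were Ncoa7 and Haspin, described below, and Xcr1 and Slc6a18, which were named after their values were seen and had low group means, of 0.66 to 2.34 CPM for Xcr1 and 1.04 to 1.98 CPM for Slc6a18.

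The 2 responses behind the interaction had different spreads of p-values. In WT, DMαKG gave 0 called genes by edgeR and 352 (2.73%) at an unadjusted p under 0.05, of which 135 were higher and 217 lower. DESeq2 called 2 genes in WT and voom called 8. In cKO, edgeR again called 0 genes, with a smallest adjusted p of 0.109, but 2247 genes (17.4%) had an unadjusted p under 0.05, 966 higher and 1281 lower. DESeq2 called 389 genes in cKO and voom called 450. Vehicle and DMαKG libraries did not overlap for 2720 genes (21.1%) in cKO and for 1090 genes (8.45%) in WT. These counts do not show that the responses differ, which is what the interaction tests.

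The cKO counts changed when single libraries were left out and when the Y-linked level was added to the fit. Without WT DMαKG replicate 3, which is not in that contrast but enters the fit, 112 genes were called for DMαKG in cKO. Without cKO vehicle replicate 2 there were 6. The filter, the scaling and the shared spread were all estimated anew in each such fit, and their parts were not tested. The mean log2 level of Ddx3y, Kdm5d and Eif2s3y was also fitted as a covariate. The number of genes at an unadjusted p under 0.05 was then 606 for DMαKG in cKO, 440 for DMαKG in WT and 122 for the interaction. In cKO this level was 6.55, 6.82 and 6.95 with vehicle and 0.32, 6.37 and 0.58 with DMαKG, so it went largely with treatment. The covariate can therefore take up part of the DMαKG difference. In every value given with it, Y-linked level and treatment cannot be told apart.

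**Figure D1:**
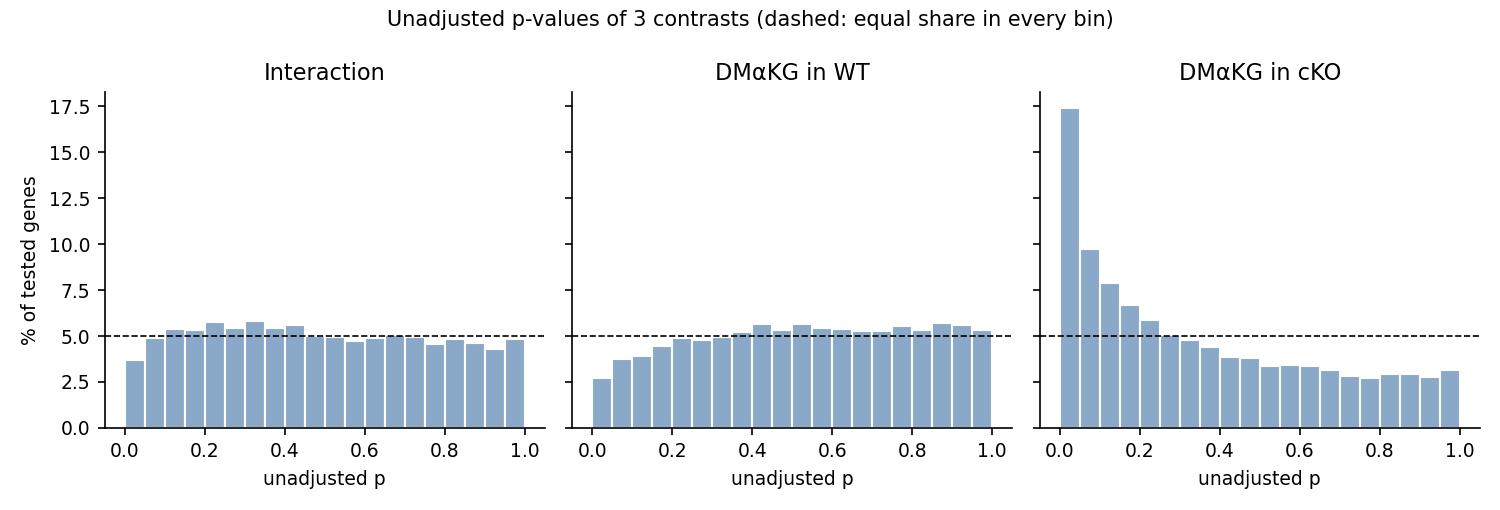
Share of the 12903 tested genes (vertical axis, %) in bins of unadjusted edgeR p (horizontal axis) for the interaction and for DMαKG against vehicle in WT and in cKO. The lowest bin holds 3.7%, 2.73% and 17.4% of genes, and the dashed line marks the share of equally filled bins.

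At this depth and number of libraries the median standard error of an interaction was 0.26, since 4 group means enter it, against 0.18 for a single response. The 95% confidence interval extended a median of 0.563 to each side of the estimate. It lay wholly within -1 and 1 for 8453 genes (65.5%) and within -0.5 and 0.5 for 2244 genes (17.4%). An interaction of more than 2-fold was thus outside the interval for 65.5% of tested genes, each interval taken singly, while smaller ones were not resolved for most. Over all genes the interaction term held on average 7.75% of a gene's spread among the 12 libraries, below genotype (13.0%) and treatment (14.8%), and below the 9.09% that equal sharing over the 11 degrees of freedom would give. Differences between replicates held 64.4%.

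The WT and cKO responses share no library, and across the 12903 genes they were weakly related in a positive direction. Pearson's r was 0.281 and Spearman's rho 0.362, and 64.3% of genes had the same sign in both. These values are across genes, which are not independent replicates. Genes that were lower with DMαKG in cKO at an unadjusted p under 0.05 were mostly lower in WT too, 1155 of 1281 (90.2%), but by less: their median was -0.52 in cKO and -0.17 in WT. Of the 966 that were higher in cKO, 710 (73.5%) were higher in WT, with medians of 0.67 and 0.12. Selection on the cKO p-value by itself makes the cKO median the larger of the 2. Genes selected on the WT p-value had the median of larger size in WT. The 135 genes higher in WT had medians of 0.475 in WT and 0.259 in cKO, and the 217 lower in WT -0.66 and -0.31. Of these, 117 (86.7%) and 153 (70.5%) had the same sign in cKO, so the 2 selections did not mirror each other exactly.

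**Figure D2:**
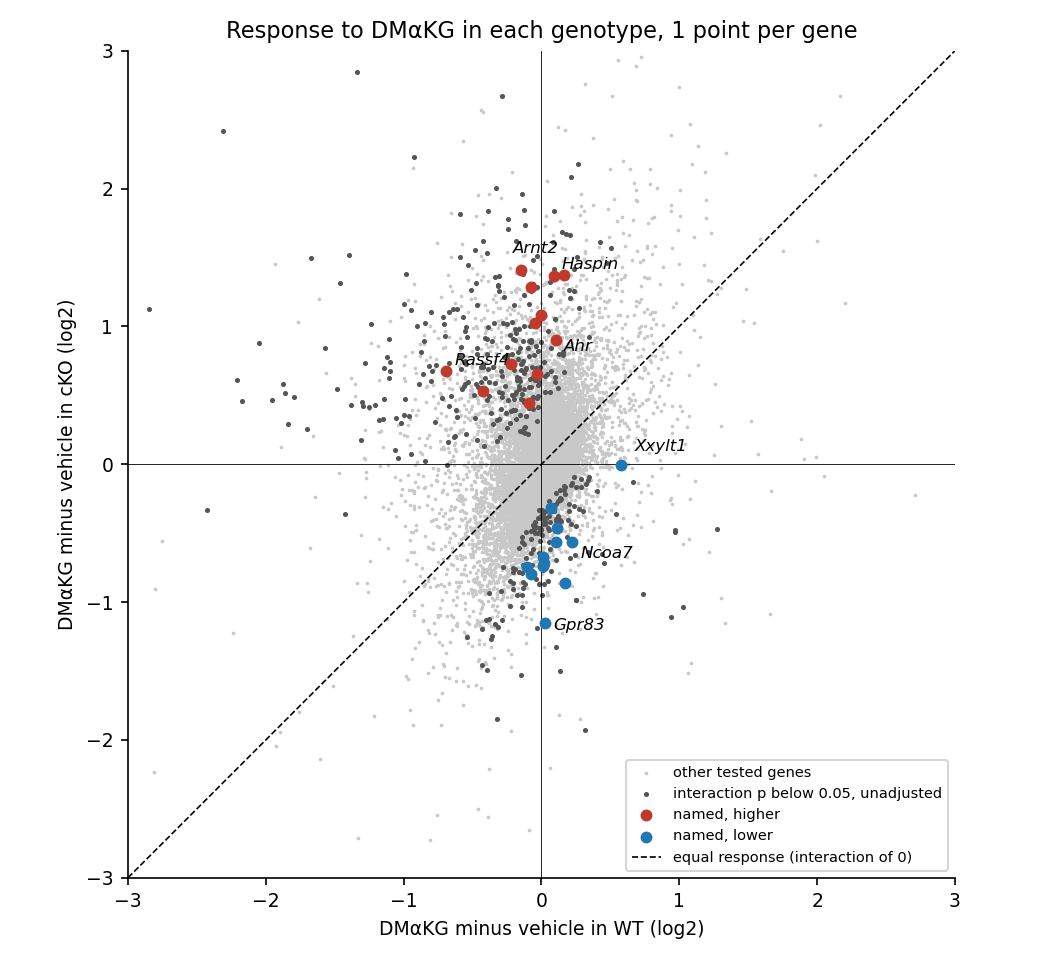
DMαKG minus vehicle on the log2 scale in WT (horizontal axis) and in cKO (vertical axis), 1 point per tested gene, with 21 genes beyond the axes. The 12 named genes with positive interactions (red) lie above the dashed line of equal response and the 12 with negative ones (blue) below it, because they were chosen for a small interaction p.

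The genes named next are the 12 protein-coding genes per direction with the smallest interaction p, among genes whose mean reached 5 CPM in some group. None passed the adjusted test, so their values describe these libraries. For 22 of the 24 the response was larger in size in cKO than in WT. For 21 the vehicle and DMαKG libraries did not overlap in cKO, as for 21.1% of all tested genes. In WT the size of the response was under 0.25 for 21 of them, and its median over all tested genes was 0.119. With vehicle all 12 genes with positive interactions had a lower mean in cKO than in WT, and all 12 with negative interactions a higher one. A low interaction p favours such an arrangement, because the cKO vehicle group enters the contrast. The other groups enter it too, so nothing was read from any of the counts in this paragraph.

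Ncoa7, a nuclear receptor coactivator gene, had the smallest p of all tested genes. It lies on chromosome 10, 30645582 to 30807700 (GRCm38). The WT level was 104, 97.3 and 105 CPM with vehicle (replicates 2, 3 and 4) against 122, 110 and 125 CPM with DMαKG (replicates 1, 2 and 3). The cKO level was 152, 171 and 153 CPM with vehicle against 104, 103 and 115 CPM with DMαKG, in replicates numbered alike. The cKO vehicle libraries were above all 9 others, and with DMαKG the genotypes overlapped. The 2 responses had opposite signs, 0.22 in WT and -0.56 in cKO. The interaction was -0.79 (SE 0.14, 95% interval -1.08 to -0.49, unadjusted p = 8.27e-05, edgeR adjusted p = 0.949). The estimate ran from -0.87 to -0.70 over the alternatives. Its smallest adjusted p was 0.00105, with DESeq2, and it also passed with voom.

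Haspin had the smallest p among the 12 genes with positive interactions, and Itgae, which overlaps it, was named as a member of the Treg lists. Haspin encodes a kinase that phosphorylates histone H3 in mitosis, and Itgae encodes integrin αE (CD103), a receptor for E-cadherin on tissue-homing T cells. Haspin lies within Itgae on chromosome 11 (GRCm38): it runs from 73135484 to 73138294 on the reverse strand and Itgae from 73090505 to 73147449 on the forward strand, and 0 annotated Itgae exons overlap Haspin in GENCODE M21. The sources used here do not say whether strand was used in counting, so reads of Itgae introns and of Haspin cannot be told apart. The RefSeq promoter of Haspin (chr11:73138245-73138544, reverse strand, GRCm38.p6) is shown because it marks where that gene starts inside Itgae, with the 50 bases after the start in capitals.
Haspin: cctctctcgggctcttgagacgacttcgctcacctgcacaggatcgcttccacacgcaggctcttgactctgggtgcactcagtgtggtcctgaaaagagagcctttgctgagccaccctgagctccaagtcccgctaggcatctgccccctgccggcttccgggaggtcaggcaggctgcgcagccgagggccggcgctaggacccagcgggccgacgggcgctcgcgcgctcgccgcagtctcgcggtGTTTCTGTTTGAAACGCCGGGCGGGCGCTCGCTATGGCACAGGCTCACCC

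Haspin stood at 20.7, 26.9 and 23.6 CPM in WT with vehicle, 28.8, 27.7 and 19.2 CPM in WT with DMαKG, and 26.0, 17.0 and 23.9 CPM in cKO with vehicle. In cKO with DMαKG it stood at 69.0, 54.2 and 49.1 CPM, above the other 9 libraries. Its interaction was 1.28 (SE 0.28, unadjusted p = 0.000701, edgeR adjusted p = 0.949). Itgae stood at 135, 175 and 165 CPM in WT with vehicle, 188, 172 and 148 CPM in WT with DMαKG, 166, 132 and 194 CPM in cKO with vehicle, and 463, 299 and 261 CPM in cKO with DMαKG. Its interaction was 0.96 (SE 0.30, unadjusted p = 0.00684). For both genes 3 groups lay close together and the fourth stood above them.

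Predicted genes of 1 stretch of chromosome 14 made up 5 of the 12 genes with positive interactions: Gm3512, Gm8279, Gm3696, 2610042L04Rik and Gm38690. They lie between positions 3208675 and 7175383 (GRCm38), a stretch of many predicted genes. Gm3512 stood at 33.4 ± 3.16 CPM in WT with vehicle and 37.4 ± 2.69 CPM with DMαKG, and at 30.6 ± 10.4 and 79.3 ± 8.5 CPM in cKO (SD, n = 3; interaction 1.21, SE 0.28, unadjusted p = 0.00102). In single cKO libraries it stood at 41.2, 30.3 and 20.5 CPM with vehicle and at 77.9, 71.6 and 88.4 CPM with DMαKG. 2610042L04Rik, the most abundant of the 5, stood at 88.5, 88.4, 81.4 and 172 CPM in the same order of groups, with an interaction of 1.08 (SE 0.29). Gm38690 had an interaction of 1.07, Gm8279 of 1.36 and Gm3696 of 0.95.

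Of the 41 tested genes in that stretch, chosen after these values were seen, 36 had positive and 5 negative interactions. Of the 41, 16 (39.0%) had an unadjusted p under 0.05, all positive, against 3.7% of all tested genes, and 0 passed the adjusted test. The 16 include the 5 genes named above, which were picked for a small interaction p. Those 5 also set the ends of the stretch, so the 39.0% is raised by that choice. The median response of the 41 genes was -0.04 in WT and 0.89 in cKO. Reads may be shared among genes of similar sequence, so the 41 values cannot be taken as independent. Sequences were compared only in promoters.

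Similarity among 4 of the 5 named genes of the stretch can be seen in their promoters. RefSeq promoters (250 bases before to 50 after the start, GRCm38.p6) matched 21 of the 24 named genes. The 4 below share a run of 19 bases, shown in capitals with 50 bases on each side, the longest run found in a listed promoter of each of the 4. These 4 were picked after the sequences were compared, without Gm8279. The windows lie at chr14:4334562-4334680 (forward strand), chr14:7174618-7174736 (reverse), chr14:7105487-7105605 (reverse) and chr14:3208428-3208546 (forward). Each was taken from a listed promoter that holds the run. For 2610042L04Rik, Gm3512 and Gm3696 the window lies inside the listed limits of the gene, not before its outer start.
2610042L04Rik: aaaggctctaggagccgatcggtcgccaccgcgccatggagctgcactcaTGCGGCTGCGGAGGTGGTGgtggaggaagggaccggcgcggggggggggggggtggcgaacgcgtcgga
Gm3512: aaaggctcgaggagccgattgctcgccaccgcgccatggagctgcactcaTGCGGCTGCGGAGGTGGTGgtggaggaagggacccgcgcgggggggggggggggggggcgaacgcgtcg
Gm3696: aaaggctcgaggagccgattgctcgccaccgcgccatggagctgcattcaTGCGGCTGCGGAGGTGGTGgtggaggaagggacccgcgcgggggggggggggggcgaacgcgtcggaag
Gm38690: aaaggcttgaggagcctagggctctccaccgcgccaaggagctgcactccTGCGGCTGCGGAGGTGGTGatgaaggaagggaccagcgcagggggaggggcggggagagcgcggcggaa

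The run TGCGGCTGCGGAGGTGGTG occurred in the promoter of 15 of 27025 genes (0.0555%), searched on the strand of each gene, and all 15 were on chromosome 14. Of these, 10 were among the 41 tested genes of the stretch. The promoter of Gm8279 did not hold the run. The match describes these sequences only.

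Ahr, Arnt2, Malt1 and Il18rap were 4 of the other genes with positive interactions. Ahr, which encodes the ligand-activated aryl hydrocarbon receptor, stood at 52.4, 54.0 and 41.4 CPM in WT with vehicle, 61.6, 53.4 and 43.7 CPM in WT with DMαKG, 43.1, 43.3 and 36.8 CPM in cKO with vehicle, and 85.0, 81.1 and 64.0 CPM in cKO with DMαKG. The last group lay above all other libraries. The Ahr interaction was 0.80 (SE 0.22, unadjusted p = 0.00374). Arnt2, a transcription factor of the same bHLH-PAS family, was lowest in cKO with vehicle, at 2.55, 4.01 and 2.94 CPM, and stood at 9.46, 9.06 and 6.74 CPM in cKO with DMαKG, within the WT range of 6.24 to 15.9 CPM (interaction 1.56, SE 0.46). Malt1, the paracaspase that links the T cell receptor to NF-κB, had 175 ± 17.9 CPM in cKO with vehicle and 211 to 237 CPM as the means of the other groups (0.54, SE 0.16). Il18rap, the accessory chain of the IL-18 receptor, had means of 31.8 and 23.7 CPM in WT with vehicle and with DMαKG and of 20.6 and 29.8 CPM in cKO (0.96, SE 0.29), with overlapping libraries in both genotypes.

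The remaining 2 with positive interactions were Ttc19 and Rassf4. Ttc19, a factor of mitochondrial respiratory complex III that overlaps Ncor1 and is uncertain for that reason, stood at 99.2, 97.0, 74.3 and 117 CPM in WT with vehicle, WT with DMαKG, cKO with vehicle and cKO with DMαKG (0.69, SE 0.18). Rassf4, a member of the Ras association domain family that overlaps Depp1, stood at 5.31, 3.27, 4.32 and 6.91 CPM in that order (1.37, SE 0.39). Rassf4 was the only one of the 12 with positive interactions whose WT libraries did not overlap between treatments. Over all tested genes the WT libraries did not overlap for 8.45%. With the Y-linked covariate Arnt2 was at 1.03 and Rassf4 at 0.895.

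The genes with negative interactions had their highest mean in cKO with vehicle, except Xxylt1, and their lowest in cKO with DMαKG, except Xxylt1 and Ncoa7. Eef1aknmt, a methyltransferase of translation elongation factor eEF1A, stood at 17.3 ± 1.08 and 17.4 ± 1.21 CPM in WT with vehicle and with DMαKG (SD, n = 3), at 19.7, 23.4 and 23 CPM in cKO with vehicle and at 13.8, 13.7 and 12.1 CPM in cKO with DMαKG (interaction -0.74, SE 0.17, unadjusted p = 0.00106). Cd3eap, an RNA polymerase I subunit that overlaps Ercc1, stood at 10.4, 10 and 10.2 CPM in WT with vehicle, 10.4, 11.8 and 10.7 CPM in WT with DMαKG, 12.3, 13.0 and 12.8 CPM in cKO with vehicle and 8.74, 8.66 and 8.39 CPM in cKO with DMαKG (-0.67, SE 0.17). In each genotype its replicates lay close together, and the cKO groups flanked the WT range. Polr3b, an RNA polymerase III subunit, had the same order at 57.8, 60.5, 64.9 and 52.2 CPM (-0.38, SE 0.12).

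Treml2 and Gpr83 encode surface receptors of T cells. Treml2 stood at 130, 102 and 131 CPM in WT with vehicle, 135, 108 and 125 CPM in WT with DMαKG, 159, 160 and 186 CPM in cKO with vehicle and 89.0, 121 and 97.6 CPM in cKO with DMαKG (interaction -0.74, SE 0.20, unadjusted p = 0.00329). Gpr83, a G protein-coupled receptor enriched in Tregs, stood at 125, 147 and 235 CPM in cKO with vehicle and 64.4, 98.8 and 65.6 CPM in cKO with DMαKG, against 90.4 to 149 CPM over the 6 WT libraries (-1.18, SE 0.37). The cKO libraries of each gene did not overlap between treatments, while the WT libraries did. With the Y-linked covariate the values were -0.41 for Treml2 and -0.60 for Gpr83.

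Xxylt1, a glycosyltransferase that extends xylose on Notch receptors, was, with Rassf4, 1 of the 2 named genes with the larger response in WT. Its WT level ran from 54.0, 45.5 and 46.3 CPM with vehicle to 80.3, 73.4 and 63.7 CPM with DMαKG. In cKO it stood at 70.5, 72.2 and 69.5 CPM with vehicle and 74.2, 73.7 and 63.7 CPM with DMαKG. The WT vehicle group was thus the low one, and the other 3 overlapped. The interaction was -0.58 (SE 0.16, unadjusted p = 0.00371), made of 0.58 in WT and -0.0035 in cKO. Wdr82, a subunit of histone H3 lysine methyltransferase complexes, stood at 294, 318, 340 and 247 CPM (-0.57, SE 0.16). The remaining 5, Thap11, Usp27x, Tbcc, Zscan29 (which overlaps Adal and Tubgcp4) and the already named Polr3b, had interactions from -1.03 for Usp27x to -0.38 for Polr3b. Zscan29 was at -0.64, or -0.39 with the Y-linked covariate.

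**Figure D3:**
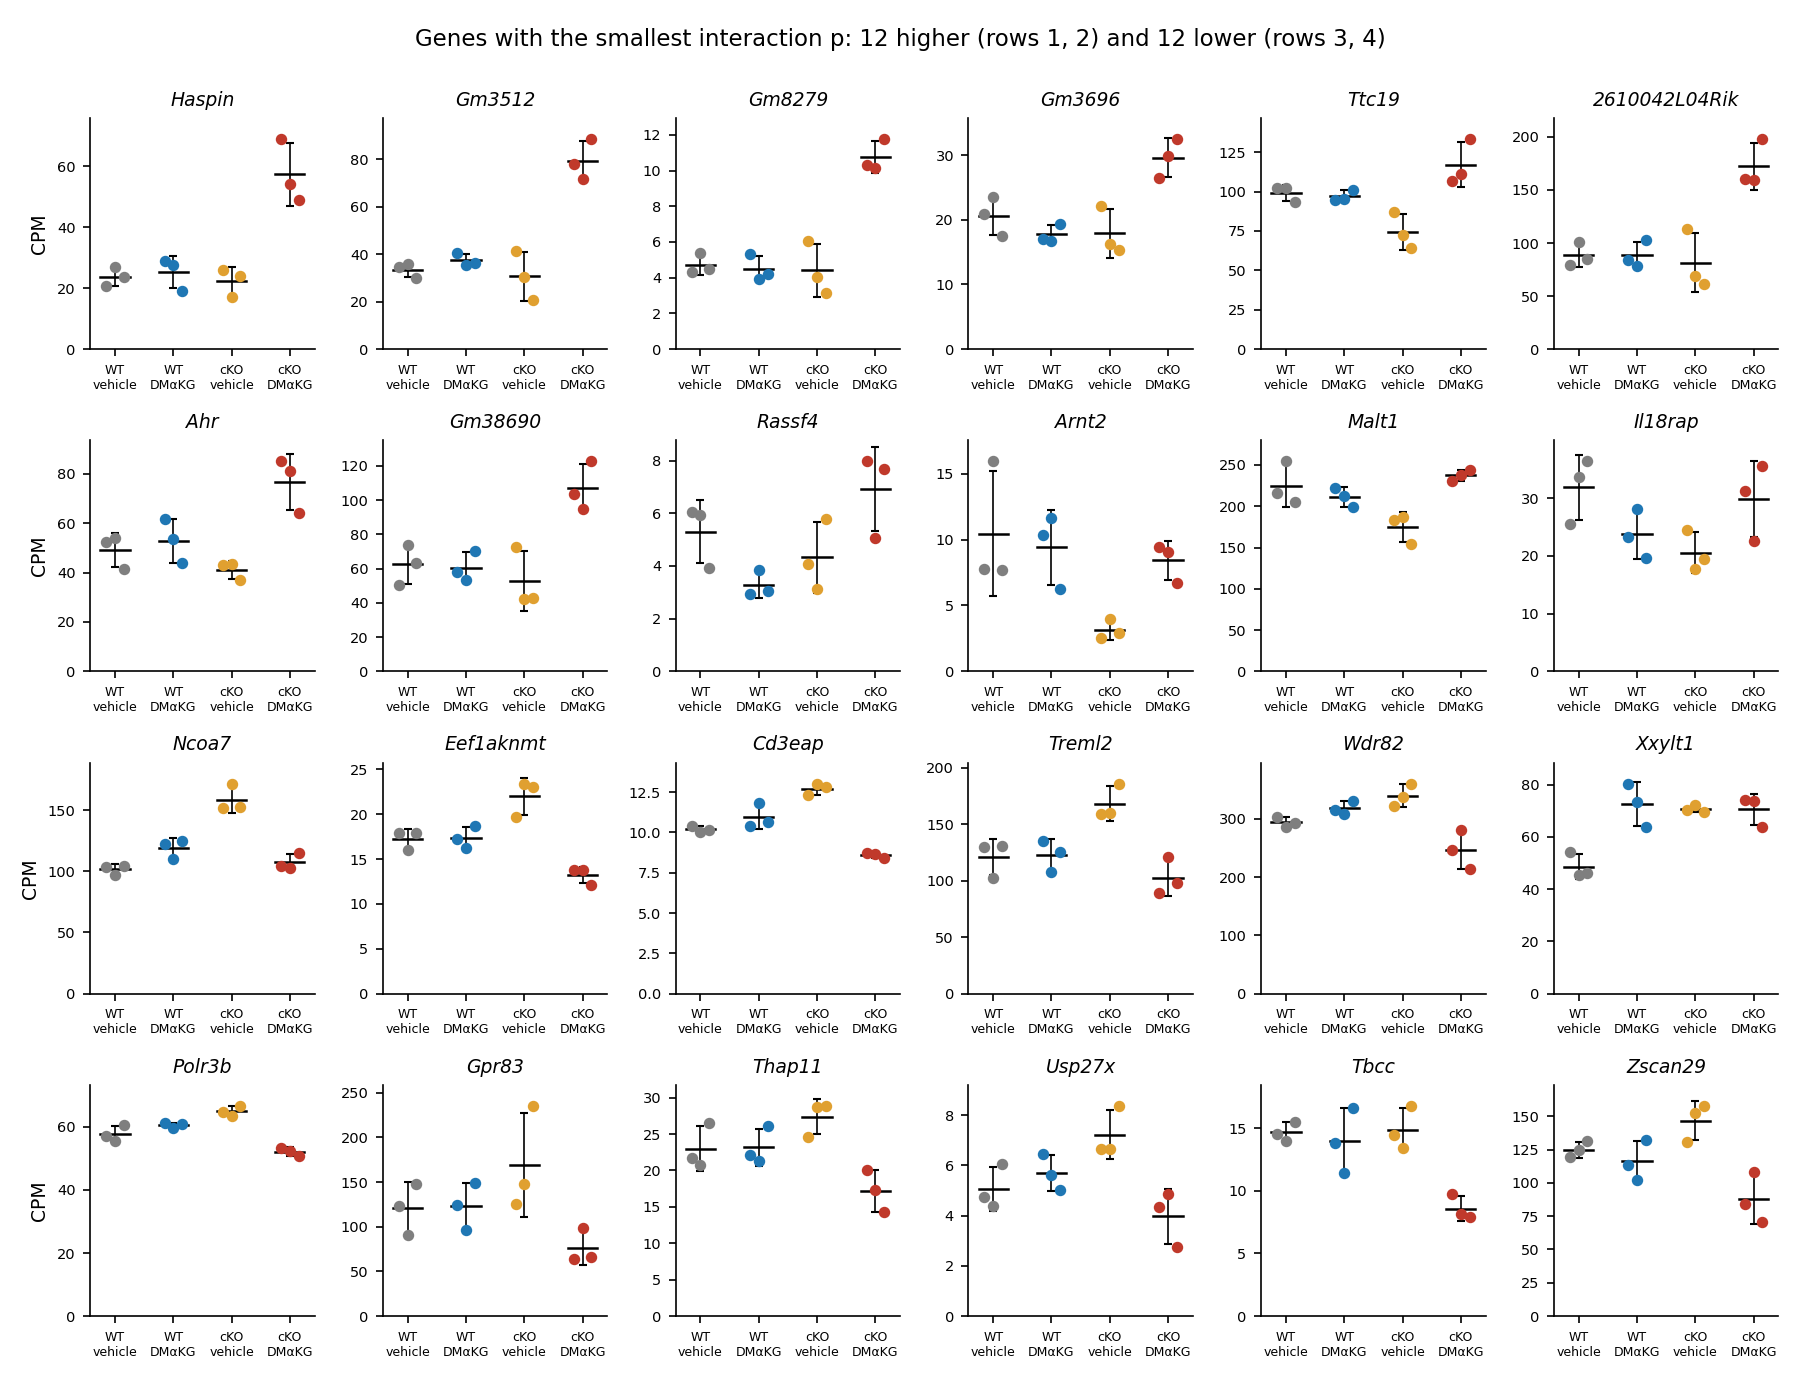
Expression in CPM (vertical axes, from 0) of the 24 named genes in the 4 groups. Points are libraries, horizontal lines means and bars SD over 3 libraries. In most panels WT with vehicle and WT with DMαKG lie together while the cKO groups stand apart, as for Haspin at 22.3 and 57.4 CPM, and Xxylt1 shows the reverse. The genes were chosen for a small interaction p in these libraries, so nothing was read from this arrangement.

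Gene lists were described by the number of members with positive or negative interactions and by the median, beside all tested genes, of which 48.7% were positive with a median of -0.0088. Of all tested genes 3.7% had an unadjusted p under 0.05, the share to set beside the count of each list. No member of any list passed the adjusted test. The enzymes that use or supply the tested metabolite came first. Of 13 TET and DNA methylation genes, 5 were positive and 8 negative, with a median of -0.10 and 0 at an unadjusted p under 0.05. Tet2 had the smallest p among them, at 99.2, 115, 80.1 and 122 CPM in WT with vehicle, WT with DMαKG, cKO with vehicle and cKO with DMαKG (0.39, SE 0.21, unadjusted p = 0.0835). Its 3 cKO libraries were at 85.6, 84.9 and 69.7 CPM with vehicle and at 117, 109 and 141 CPM with DMαKG. The list's median took both signs when single libraries were left out, from -0.21 to 0.02, and was 0.13 with the Y-linked covariate.

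Among 44 other 2-oxoglutarate-dependent dioxygenases 16 were positive and 28 negative, with a median of -0.09, and 1 had an unadjusted p under 0.05 (2.27%, against 3.7% of all genes). It was Plod2, a collagen lysyl hydroxylase, at 7.21, 6.09, 8.13 and 11.3 CPM (0.71, SE 0.26). The demethylase gene Kdm2a had -0.41 (SE 0.23), the prolyl hydroxylase gene Egln2 -0.34 (SE 0.20) and the JmjC-domain gene Jmjd1c 0.37 (SE 0.24). The median response of the list was -0.06 in WT and -0.09 in cKO. The median interaction was between -0.05 and -0.04 without cKO vehicle replicate 2 or 3, WT DMαKG replicate 3, or cKO DMαKG replicate 3.

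Genes of central metabolism had medians near that of all genes. The 12 tested pentose phosphate genes had a median of -0.01, with 6 positive and 6 negative. Glycolysis (27 genes, median 0.03), TCA cycle and α-ketoglutarate handling (38 genes, 0.04), nuclear-encoded oxidative phosphorylation (74 genes, 0.05), fatty acid activation and oxidation (27 genes, -0.04) and cholesterol synthesis (23 genes, 0.03) gave similar values. Leaving out single libraries gave medians of both signs for each of these 6 lists. Of the TCA cycle list 2 genes (5.26%) had an unadjusted p under 0.05. Got1, a transaminase that interconverts aspartate and α-ketoglutarate with oxaloacetate and glutamate, stood at 36.8, 41.0, 41.5 and 72.8 CPM (0.66, SE 0.29), and Dhtkd1, a 2-oxoacid dehydrogenase subunit, at 3.98, 3.44, 3.18 and 4.52 CPM (0.72, SE 0.32). Cpt1a, which carries fatty acids into mitochondria, stood at 79.3 to 144 CPM over the 6 WT libraries, at 96.9, 132 and 149 CPM in cKO with vehicle and at 95.9, 74.9 and 50 CPM in cKO with DMαKG (-0.85, SE 0.37), and was the 1 gene of the fatty acid list at an unadjusted p under 0.05.

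Stress-response lists held single genes with interactions of opposite sign. Ddit4, an inhibitor of mTORC1, stood at 53.6 to 128 CPM over the 6 WT libraries, at 88, 111 and 143 CPM in cKO with vehicle and at 30.4, 46.5 and 18.3 CPM in cKO with DMαKG (-1.52, SE 0.52, unadjusted p = 0.0131). Asns, the asparagine synthetase gene, had 1.15 (SE 0.41, unadjusted p = 0.0163). The 23 integrated stress response genes had a median of 0.12, with 1 positive and 2 negative at an unadjusted p under 0.05, and the median was -0.07 without cKO vehicle replicate 2. Nfe2l2, which encodes the antioxidant regulator NRF2, stood at 31.6, 28.4 and 37.2 CPM in cKO with vehicle and 15.5, 13.8 and 15.1 CPM in cKO with DMαKG, against 19.5 to 38.2 CPM in the 6 WT libraries (-0.73, SE 0.29). The antioxidant list as a whole had a median of 0.0085 over 25 genes, or 0.21 without cKO DMαKG replicate 2 and -0.02 without cKO DMαKG replicate 3.

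Of 34 effector Treg genes 31 were positive (91.2%), with a median of 0.75. An unadjusted p under 0.05 was found for 4 (11.8%), against 3.7% of all tested genes. The 4 were Ahr and Itgae, given above, Cxcr6 and S100a4. Cxcr6, the receptor of CXCL16, which overlaps Fyco1, stood at 15.4, 12.2 and 21.2 CPM in WT with vehicle, 7.32, 10.8 and 11.4 CPM in WT with DMαKG, 3.14, 5.49 and 5.93 CPM in cKO with vehicle and 7.25, 6.06 and 7.0 CPM in cKO with DMαKG (1.2, SE 0.38). Vehicle and DMαKG libraries were separate in both genotypes, in opposite directions, and the cKO libraries with either treatment were below all 6 WT libraries. S100a4, a calcium-binding protein gene, stood at 48.2, 33.2, 16.1 and 30.6 CPM (1.47, SE 0.47).

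Of 20 resting Treg and naive T cell genes 17 were negative (85.0%), with a median of -0.36. An unadjusted p under 0.05 was found for 2 (10%, against 3.7% of all tested genes). These were Treml2, given above, and Bcl2, the anti-apoptotic gene, at 327, 353, 418 and 314 CPM (-0.52, SE 0.20). Lef1, a transcription factor of naive T cells, had -0.53 (SE 0.25, unadjusted p = 0.0566). The 29 Treg core genes were divided, 17 positive and 12 negative, with a median of 0.07. In single cKO libraries the level of the effector list, as the median of log2 CPM minus each gene's mean, was -0.613, -0.167 and -0.355 with vehicle (replicates 2, 3 and 4) and 0.505, -0.254 and 0.0533 with DMαKG (replicates 1, 2 and 3). The level of the resting list was 0.0823, 0.154 and 0.0319 with vehicle and -0.392, 0.118 and -0.146 with DMαKG. Vehicle and DMαKG libraries of cKO overlapped for both lists, and the lists were not tested against each other. The Treg core median was -0.01 without WT vehicle replicate 4 and 0.11 without WT vehicle replicate 3. Without cKO DMαKG replicate 1 the effector median was 0.45 and the resting median -0.23, and with the Y-linked covariate they were 0.38 and -0.23. Without the 3 libraries together on the first component the effector median was 0.45.

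The 17 chemokine receptor genes had a median of 0.34, from median responses of -0.35 in WT and 0.14 in cKO. It was 0.56 without cKO vehicle replicate 4 or cKO DMαKG replicate 2. The 22 T helper genes had a median of 0.24, or 0.42 without WT DMαKG replicate 3 and 0.15 without WT vehicle replicate 4, WT DMαKG replicate 1 or WT DMαKG replicate 2. The list held Il23r (1.69, SE 0.66), with group means of 0.32 to 0.837 CPM, beside Ahr and Il18rap at an unadjusted p under 0.05 (13.6% of members). Xcr1, a receptor of cross-presenting dendritic cells, stood at 2.04, 1.34, 0.66 and 2.34 CPM (2.41, SE 0.52, unadjusted p = 0.000575). T cell receptor signalling genes had a median of -0.06 over 41 genes, or -0.0033 without cKO DMαKG replicate 3 and -0.11 without cKO vehicle replicate 4. Malt1 was the 1 positive and Prkcq, a protein kinase C, the 1 negative gene at an unadjusted p under 0.05 (Prkcq -0.34, SE 0.14). Cd28, the costimulatory receptor, stood at 492, 627, 338 and 754 CPM (0.81, SE 0.41, unadjusted p = 0.0691).

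Interferon-stimulated genes had 46 of 50 negative interactions (92%), with a median of -0.34. An unadjusted p under 0.05 was found for 6 (12%), against 3.7% of all tested genes. Their median response was -0.18 in WT and -0.51 in cKO, the same direction in both. Slfn5, of the Schlafen family of interferon-induced genes, stood at 245, 234 and 319 CPM in WT with vehicle, 208, 193 and 291 CPM in WT with DMαKG, 224, 202 and 238 CPM in cKO with vehicle and 126, 118 and 122 CPM in cKO with DMαKG (-0.66, SE 0.23, unadjusted p = 0.0138). Slfn1 of the same family had -1.03 (SE 0.37), Oasl1, an oligoadenylate synthetase-like gene, -1.16 (SE 0.44), and Dtx3l, a ubiquitin ligase, -0.80 (SE 0.32). The cKO libraries with DMαKG were the lowest of the 12 for Slfn5 and Slfn1. Without WT DMαKG replicate 3 the list's median was -0.17, without WT vehicle replicate 4 it was -0.59, and with the Y-linked covariate it was -0.14.

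Proliferation genes were positive almost throughout without any single gene at an unadjusted p under 0.05 in the mitosis and DNA replication lists. All 50 tested mitosis genes were positive, with a median of 0.61, and 47 of 50 DNA replication genes, with a median of 0.43. Prc1, a spindle midzone protein gene that overlaps Rccd1, had the smallest p of the mitosis list. It stood at 23.5, 20.8 and 26.3 CPM in WT with vehicle, 20.3, 28.9 and 16.5 CPM in WT with DMαKG, 10.5, 13.2 and 26.6 CPM in cKO with vehicle and 43.1, 22.3 and 23.7 CPM in cKO with DMαKG (0.93, SE 0.49, unadjusted p = 0.0800). The cKO vehicle libraries ranged widely, and the groups overlapped. The level of the whole mitosis list, as the median of log2 CPM minus each gene's mean, was -1.38, -0.61 and 0.65 in cKO vehicle replicates 2, 3 and 4 and 0.95, 0.02 and 0.17 in cKO DMαKG replicates 1, 2 and 3. Members of such a list move together from library to library, so their number adds little to 3 libraries. Without cKO vehicle replicate 2 the mitosis median was 0.26, without cKO DMαKG replicate 1 it was 0.31, and without cKO vehicle replicate 4 it was 1.42. The DNA replication median moved likewise, to 0.19, 0.24 and 0.80. Without the 3 libraries together on the first component the mitosis median was 0.98.

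Replication-dependent histones, which mRNA selection captures poorly because their transcripts lack long poly(A) tails, had 17 positive and 6 negative of 23 tested, with a median of 0.45, or -0.10 with the Y-linked covariate. Leaving out WT vehicle replicate 2 gave 0.28, leaving out cKO DMαKG replicate 1 gave 0.21 and leaving out WT DMαKG replicate 2 gave 0.68. H1f5 (1.76) and H4c2 (1.61) had an unadjusted p under 0.05, at low group means of 0.143 to 1.29 CPM and 0.233 to 0.583 CPM. The median response of the histone list was high in both genotypes, 0.82 in WT and 0.89 in cKO. Cytosolic ribosomal protein genes were positive for 74 of 81 (91.4%), with a median of 0.15. Leaving out cKO DMαKG replicate 3 reversed that median to -0.14, and it was -0.04 with the Y-linked covariate. Ribosome biogenesis genes went the other way, 33 of 44 negative with a median of -0.15. Rrs1, a ribosome assembly factor, was the 1 member at an unadjusted p under 0.05 (-0.51, SE 0.22). Without cKO DMαKG replicate 2 that list's median was -0.08, without cKO vehicle replicate 3 or 4 it was -0.10, and without the 3 libraries together on the first component it was -0.05.

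**Figure D4:**
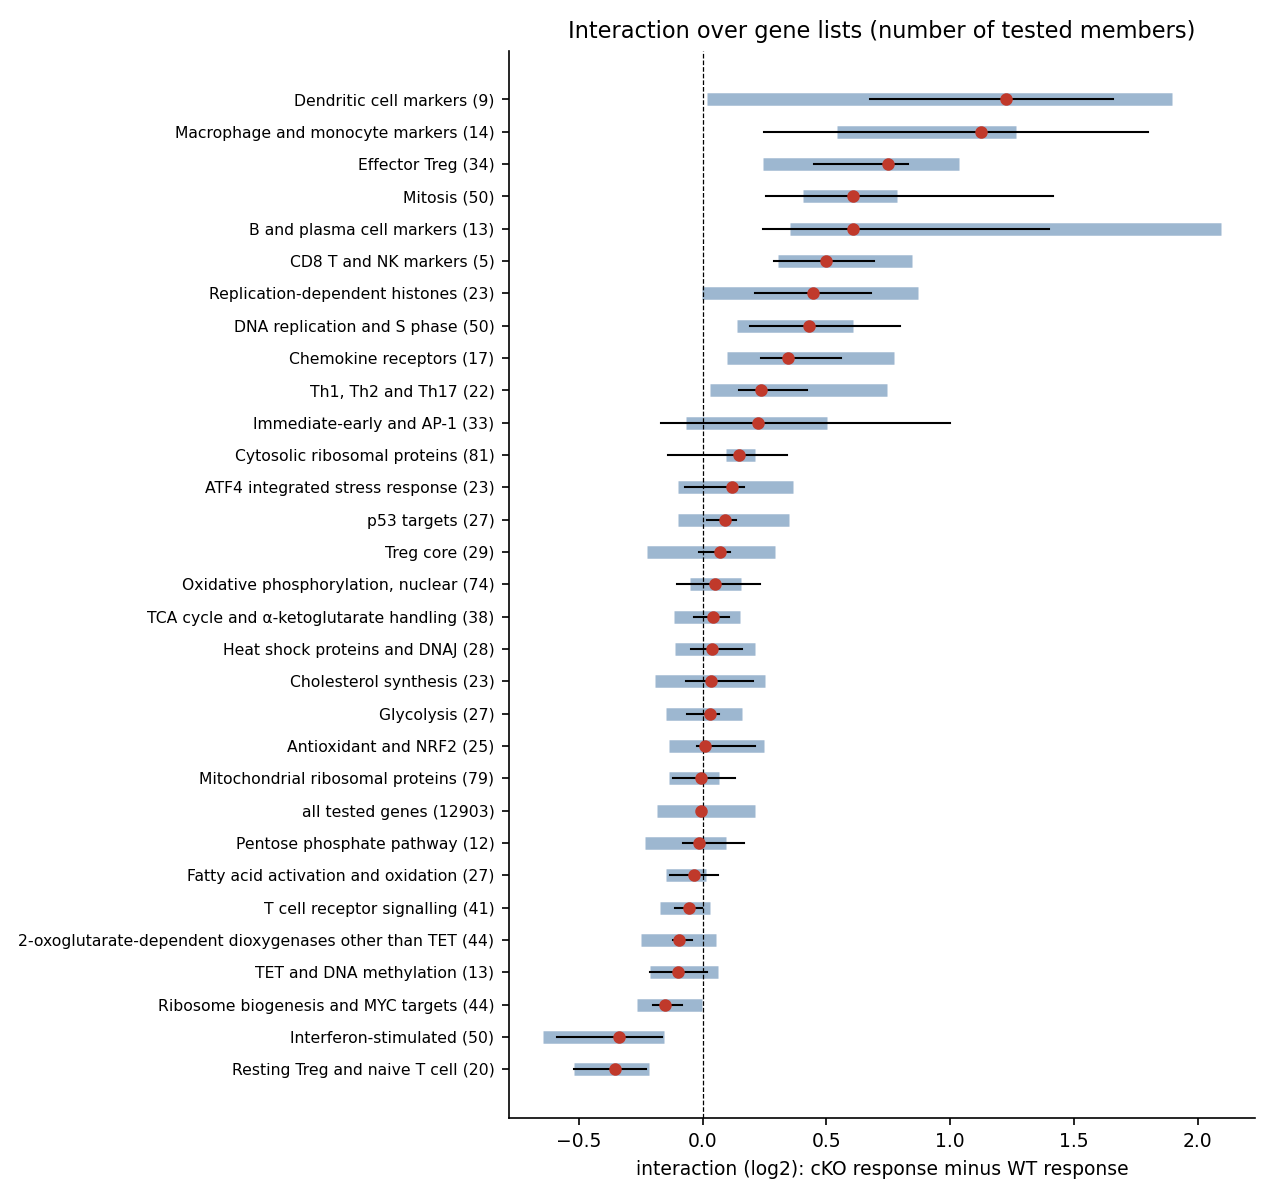
Interaction on the log2 scale (horizontal axis) for 30 gene lists and all tested genes, with the number of tested members. Red points are medians, blue bars run from the lower to the upper quartile of members, and black lines span the median when each library is left out in turn, which for the mitosis list runs from 0.26 to 1.42.

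**Figure D5:**
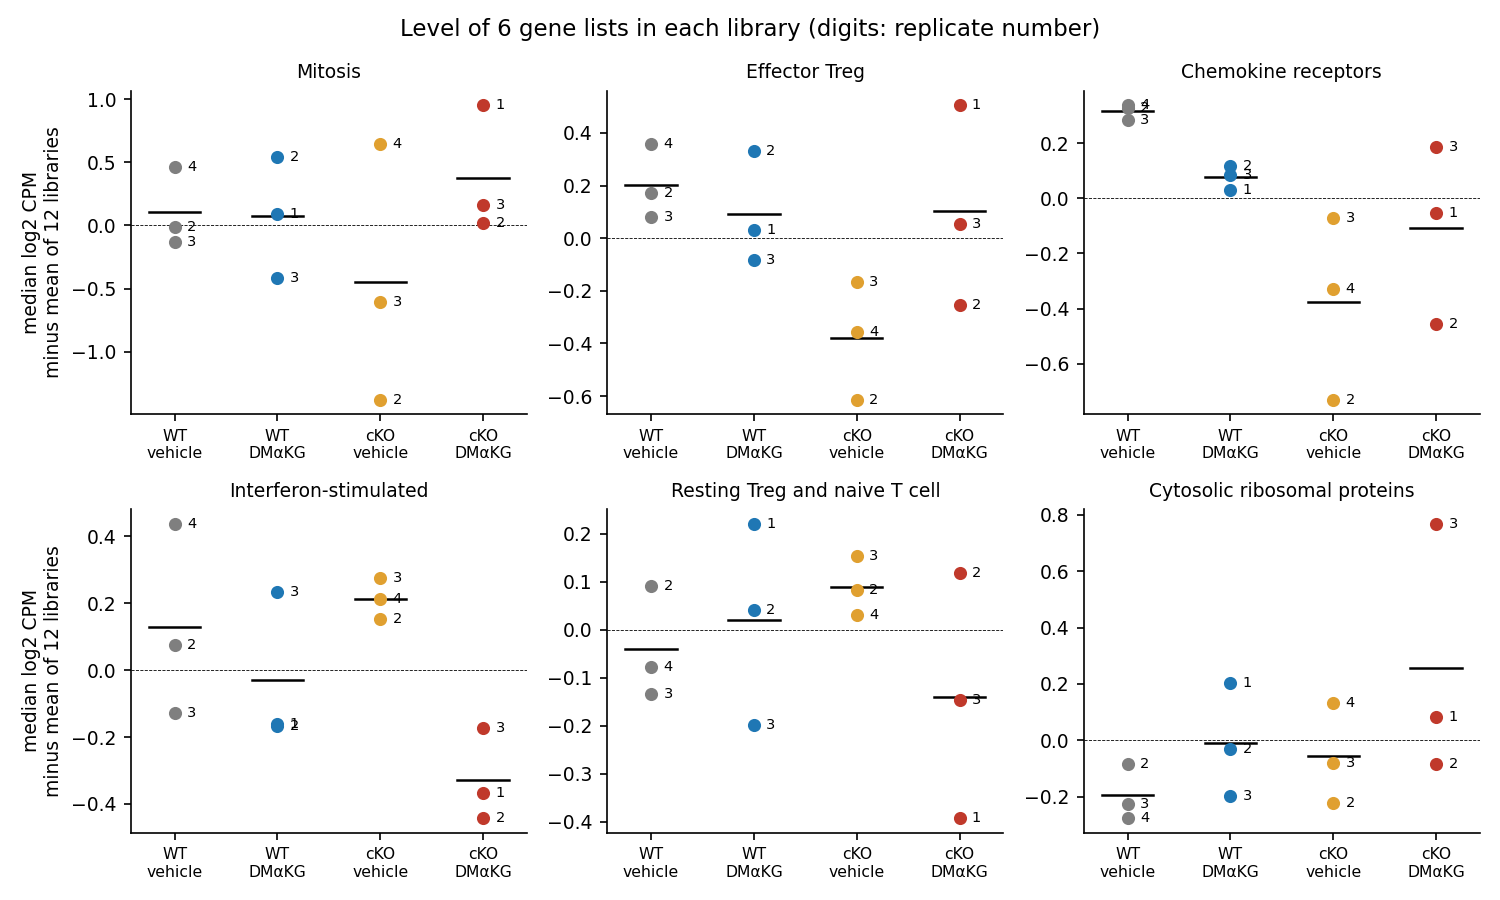
Level of 6 lists in each of the 12 libraries (vertical axes, median over members of log2 CPM minus the gene's mean over all libraries), with horizontal lines as group means and digits as replicate numbers. The 3 cKO vehicle libraries are the spread-out ones for the mitosis list, from -1.38 to 0.65. For interferon-stimulated genes the 3 cKO libraries with DMαKG lie between -0.442 and -0.174. The WT DMαKG replicates 1, 2 and 3 lie at -0.16, -0.166 and 0.234.

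Most markers of myeloid and B lineage cells had positive interactions in these sorted cells. Of macrophage and monocyte markers 13 of 14 were positive (median 1.12), and of dendritic cell markers 8 of 9 (1.22). Of B and plasma cell markers 13 of 13 were positive (0.61). In that order of lists 1 (7.14%), 3 (33.3%) and 5 (38.5%) had an unadjusted p under 0.05, against 3.7% of all tested genes. With the Y-linked covariate the medians were 0.14 for macrophage, 0.65 for dendritic cell and 0.54 for B and plasma cell markers. Of 5 CD8 T and NK cell markers 4 were positive (0.50, or 0.29 without cKO DMαKG replicate 3). Of 4 erythroid markers 3 were negative, with a median of -1.22 that was 2.47 without cKO vehicle replicate 4. In bulk RNA, fewer cells of a type and less RNA per cell cannot be told apart. The summed macrophage markers ran from 300 to 440 CPM in WT with vehicle, 286 to 435 CPM in WT with DMαKG, 310 to 352 CPM in cKO with vehicle and 337 to 619 CPM in cKO with DMαKG, most of it Ctss at 214 to 388 CPM. Summed B and plasma cell markers ran from 96.7 to 117 CPM in cKO with vehicle and 134 to 187 CPM in cKO with DMαKG, against 123 to 139 CPM in WT, most of it Xbp1 and Prdm1, which T cells also express. Dendritic cell markers summed to 95.4 to 148 CPM in WT with vehicle and 85.6 to 97 CPM in WT with DMαKG. In cKO they summed to 72.9 to 99.3 CPM with vehicle and 74.8 to 86.5 CPM with DMαKG. The median response of the 9 dendritic cell markers was -0.37 in WT, with 0 higher, and 0.46 in cKO, with 6 higher. Cd209a was at 0 in 2 libraries. Neutrophil markers summed to 34.1 CPM in cKO DMαKG replicate 3 and at most 3.87 CPM in the other 11 libraries. Their part in the results for effector, chemokine receptor and interferon-stimulated genes was not tested. Without cKO DMαKG replicate 3 the macrophage median was 0.25 and the B and plasma cell median 0.24, and without cKO vehicle replicate 3 they were 1.8 and 1.4. Without WT vehicle replicate 2 the B and plasma cell median was 0.31, and it lay between 0.93 and 1.02 without WT vehicle replicate 4, without replicate 2 of WT with DMαKG, or without cKO DMαKG replicate 1. The macrophage median was 1.7 without WT DMαKG replicate 2 and 0.71 without WT DMαKG replicate 3. Without WT vehicle replicate 2 or cKO DMαKG replicate 1 the dendritic cell median was 0.68.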

How the data were processed

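The authors deposited, for 12 libraries, 1 table of estimated read counts, TPM and FPKM over 17955 genes. Tools listed in the submitters' processing notes, with no role or order, are DESeq2 1.16.1, featureCounts 1.5.0-p3 and HISAT2 2.0.5, and the build is mm10. The deposited estimated counts are not normalized. Of their values 36.0% were not whole, so they were rounded, although the design had planned for whole counts. The FPKM values the authors deposited are scaled by length and depth, and the TPM values the authors deposited by length to a fixed sum, per the file headers. Neither was used.

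Groups and replicate numbers came from the sample titles. edgeR 4.0.16 in R 4.3.3 kept 12903 genes by its expression filter, scaled libraries by TMM and fitted its quasi-likelihood model, each group having its own mean, with 8 residual degrees of freedom and Benjamini-Hochberg adjustment over all tested genes (threshold 0.05). CPM uses TMM-scaled library sizes. Coordinates came from a RefSeq table of GRCm38.p6, the build of mm10, which held 17901 of the gene IDs, and the promoters from RefSeq. The fit was tested on simulated data.

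Named genes were Tkt, the 12 protein-coding genes per direction with the smallest interaction p whose mean reached 5 CPM in some group, and up to 4 members per list. The members, lists and naming rule were chosen with earlier results of these data known. Alternatives were other scalings and filters, DESeq2 1.42.0, voom quality weights (limma 3.58.1), a linear CPM scale, the replicate block, the Y-linked covariate, stricter thresholds, omission of libraries and, chosen after seeing the data, robust dispersions.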

Additional observations from a re-analysis of the deposited data

How the results depend on the processing

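The count of interaction genes was 0 under every alternative that was run except DESeq2 and voom quality weights, each with 1 gene (Ncoa7, lower), and 0 when any 1 library was left out. For DMαKG in WT there were 0 called genes except 2 with DESeq2 and 8 with voom, and 0 when any 1 library was left out. For DMαKG in cKO there were 389 with DESeq2, 450 with voom, 4 without the low-count filter, 13 without the 3 libraries together on the first component, and 0 to 112 when 1 library was left out, with 1 without WT vehicle replicate 3 or 4. At an unadjusted p under 0.05 the interaction gave 122 genes with the Y-linked covariate, 1315 with voom, and 285 (without WT vehicle replicate 3) to 909 (without cKO DMαKG replicate 2) when 1 library was left out. DMαKG in WT gave 203 to 1221 such genes, 2341 with voom and 949 without the 3 libraries, and DMαKG in cKO 1502 to 3014.

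Deviations from the group means correlated at -0.28 to 0.466 between same-numbered libraries of the 2 genotypes within a treatment. The highest value was that of the vehicle replicates 4. Differently numbered libraries gave -0.423 to 0.409. These ranges overlapped, so the numbers were not taken to pair libraries. With the number within each treatment as a replicate block, 0 interaction genes were called and 424 had an unadjusted p under 0.05. No paired analysis was possible for the DMαKG contrasts because each block holds 1 treatment. Of 575 alternatives over 25 named genes, 572 kept direction without a call and 2 kept it with a call (Ncoa7). The 1 that was reversed was Tkt, 0.063 without the 3 libraries, where the cause was not tested. Of the 25 genes, 24 were chosen for a small interaction p in the main fit, and the alternatives reuse the same libraries. Kept directions were thus favoured in advance, and nothing was read from their number. Of 638 list medians under alternatives, 23 moved by more than the spread between replicates. That spread is the SD of a list's level between single libraries, a wide limit for fits that share most libraries.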
